A study of Caenorhabditis elegans with 16 samples.

Results

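Transcript levels of the genes that build the core of the cullin-RING ubiquitin ligases were followed, 8 genes in all: the 6 cullins *cul-1*, *cul-2*, *cul-3*, *cul-4*, *cul-5* and *cul-6*, and the RING genes *rbx-1* and *rbx-2*. They were taken by gene name from the 21882 genes in the count tables, and all 8 were found. The data are poly-A enriched RNA sequencing of whole mixed-stage *Caenorhabditis elegans* embryos from 4 groups of 4 libraries, 16 in all. The first group is the *fbxa-215(syb4404)* mutant strain SX3678 with parents grown at 25 °C, and the second is wild-type N2 grown at 25 °C. The remaining groups are the same mutant and wild-type N2 with parents grown at 20 °C. The *syb4404* allele removes the entire coding sequence of *fbxa-215* and was outcrossed to N2. Parents of all groups were synchronized as hatched larvae from stocks kept at 20 °C, and embryos were harvested by bleaching about 47 h after plating for 25 °C, and about 56 h after plating for 20 °C. Temperature, hours after plating and collection batch therefore cannot be told apart. The study's methods call replicates biological, but neither they nor the labels say whether the libraries of a group came from separate cultures, so p-values measure the spread between these libraries.

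Cullins are elongated scaffold proteins. One end of a cullin holds a RING protein, which receives a ubiquitin-charged enzyme, and the other end holds an adaptor with an interchangeable substrate receptor, so that the substrate is brought close to the ubiquitin. F-box proteins, the class to which FBXA-215 belongs, are the substrate receptors of the CUL-1 ligases, known as SCF complexes. Attachment of the small protein NED-8 switches a cullin on, and in the worm embryo such ligases control the oocyte-to-embryo transition, the cell cycle and the removal of maternal proteins.

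Total counts ranged from 10001670 to 16777296 per library. The mutated gene *fbxa-215* had from 2170 to 3214 counts in the 8 wild-type libraries, 0 counts in 7 mutant libraries and 1 count in the other, replicate 1 at 20 °C. The 20 maternal and 18 early zygotic marker genes were all detected in every group, while 11 transcripts of adult soma and sperm summed to between 1.14 and 4.03 CPM (a count relative to the TMM-scaled size of its library) per library. The summed level of 22 late differentiation markers ranged from 2347 to 2763 CPM in mutants at 25 °C, from 2415 to 2944 CPM in wild type at 25 °C, from 806 to 1040 CPM in mutants at 20 °C and from 949 to 1202 CPM in wild type at 20 °C, where 2 of the 22 were at 0 in all 4 libraries. These marker sums differed far more between temperatures than between strains.

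Transcripts of 7 of the 8 genes were abundant in all 16 libraries, and *cul-6* was close to the limit of detection. To set one gene against another, CPM were divided by the length of the annotated exons in kb. The order was the same in the 4 groups: *rbx-1*, *cul-1*, *cul-2*, *cul-3*, *cul-5*, *cul-4*, *rbx-2* and *cul-6*. Within each group the 4 libraries of a gene all lay above the 4 libraries of the next gene, so no neighbours overlapped. The medians over 16 libraries were 408 CPM per kb for *rbx-1*, 147 for *cul-1*, 114 for *cul-2*, 84.1 for *cul-3*, 53.4 for *cul-5*, 48.2 for *cul-4*, 39.2 for *rbx-2* and 0.308 for *cul-6*. No correction for fragment length was made, and *rbx-1* and *rbx-2* are short, with 602 and 568 exonic bases against 2281 to 3165 for the cullins.

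**Figure D1:**
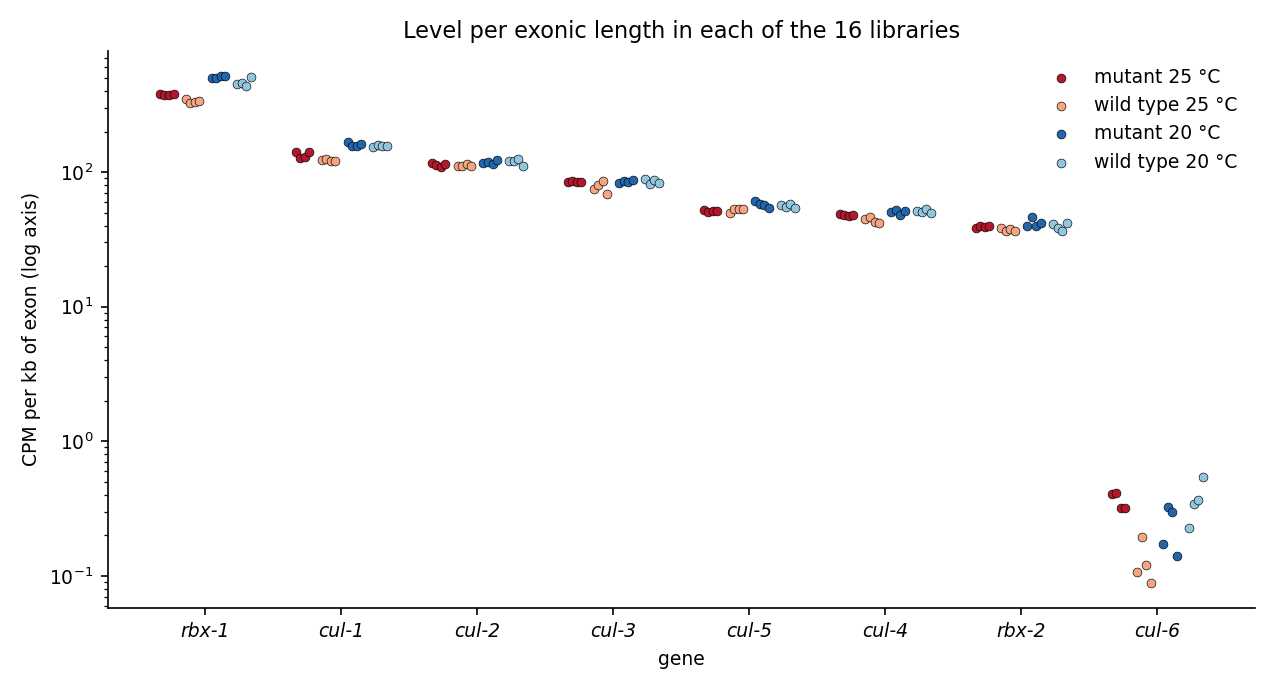
Level per exonic length of the 8 genes (CPM per kb, log axis), with 1 point per library and the groups mutant 25 °C, wild type 25 °C, mutant 20 °C and wild type 20 °C from left to right within each gene. *rbx-1* lies highest, with a median of 408 CPM per kb, and *cul-6* lies lowest, with a median of 0.308.

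Summed per length, *rbx-1* was present at about the level of all 6 cullins together. Its ratio to their sum was 0.859 to 0.887 in mutants at 25 °C, 0.786 to 0.873 in wild type at 25 °C, 1.04 to 1.13 in mutants at 20 °C and 0.907 to 1.12 in wild type at 20 °C. Of the cullin sum, *cul-1* made up 29.1% to 34.9% over the 16 libraries and *cul-2* made up 24.47% to 28.02%. The share of *cul-3* was 17.2% to 20.7%, that of *cul-5* was 11.3% to 13.4% and that of *cul-4* was 10.3% to 11.3%. *cul-6* never exceeded 0.119%. The ratio of *rbx-2* to *cul-5*, the cullin with which it is known to pair, was 0.631 to 0.806 over the 16 libraries.

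**Figure D2:**
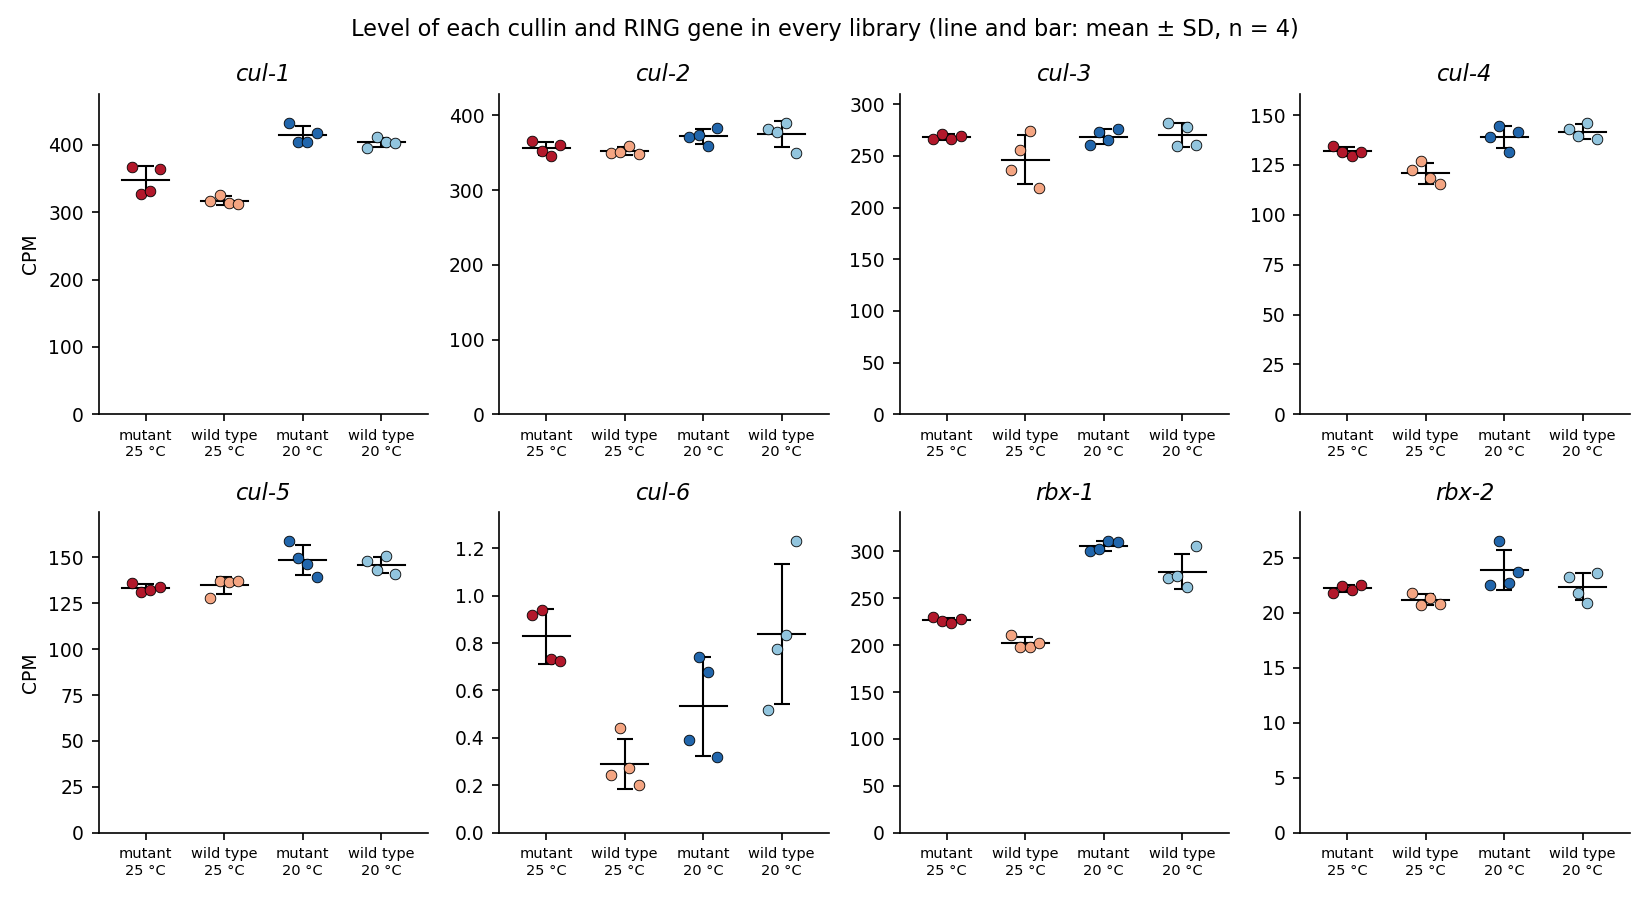
Level of each of the 8 genes in CPM (linear axes that start at 0), with 1 point per library and the mean ± SD of each group. The 25 °C libraries of *rbx-1* and *cul-1* lie below the 20 °C libraries in both strains, and *cul-6* is at most 1.23 CPM.

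*rbx-1* (WBGene00004320, chromosome V, 9689686 to 9690522, minus strand, WBcel235) encodes the RING protein shared by most cullins. At 25 °C it had 230, 226, 224 and 228 CPM in mutants, against 211, 197, 198 and 203 CPM in wild type. All mutant libraries lay above all wild-type libraries. The difference was 0.16 ± 0.04 on the log2 scale (SE, 4 libraries each), a fold of 1.12 (95% interval 1.05 to 1.19), with an edgeR adjusted p of 0.0378. At 20 °C *rbx-1* had 300, 303, 311 and 309 CPM in mutants, against 272, 274, 262 and 305 CPM in wild type. Here the groups overlapped, because wild-type replicate 4 lay among the mutants. The log2 difference was 0.15 ± 0.04 (SE), a fold of 1.11 (95% interval 1.05 to 1.18), with an edgeR adjusted p of 0.0163. In bulk RNA, fewer cells with a transcript and less of it per cell cannot be told apart.

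Both *rbx-1* calls were near the threshold. At 25 °C the call was lost when any single library other than wild-type replicate 4 was left out, with edgeR adjusted p between 0.0520 and 0.133, and also with upper-quartile scaling (adjusted p = 0.0767) or with all 16 libraries in 1 fit (0.0591). The difference at 25 °C stayed between 0.14 and 0.18 on the log2 scale over 16 alternatives, of which 6 kept the call. At 20 °C the call was lost without wild-type replicate 1 (adjusted p = 0.0514), wild-type replicate 3 (0.0605) or mutant replicate 3 (0.0508), and 13 of 16 alternatives kept it.

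These calls have to be read against all genes. At 25 °C, 2 of the 8 genes passed an adjusted p of 0.05, *rbx-1* and *cul-6*, both higher in mutants, where 4.14% of 11945 genes tested passed and 2.09% passed as higher. The balance of directions over all genes moved with the scaling, from 250 higher and 244 lower with TMM factors to 161 higher and 290 lower with upper-quartile factors. *cul-6* also exceeded a fold of 2, as 0.318% of all genes did, but it passed the filter on low counts through its mutant libraries alone, so *rbx-1* is the one call that can be read against these shares. In 4 of the 8 genes, *cul-1*, *cul-4*, *rbx-1* and *cul-6*, the mutant libraries lay wholly above the wild-type libraries. For the same reason *cul-6* cannot be read against all genes here. Groups did not overlap in either direction for 13% of all genes, and the share with mutants above was not counted apart. At 20 °C, 1 of 7 genes tested passed, *rbx-1*, where 17.3% of 10471 genes passed and 7.65% passed as higher. None of the 7 passed with a fold above 2 at 20 °C, against 1.13% of all genes, and none of the 8 had groups that did not overlap, against 19% of all genes.

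*cul-1* (WBGene00000836, chromosome III, 10471237 to 10475129, plus strand) encodes the scaffold of the SCF ligases, the one that F-box proteins use. Mutants had 367, 326, 332 and 365 CPM at 25 °C, against 317, 326, 314 and 312 CPM in wild type. The lowest mutant library (326.4 CPM) lay just above the highest wild-type library (326.2 CPM). The log2 difference of 0.13 ± 0.05 (SE) did not pass the test (edgeR adjusted p = 0.133, 95% interval of the fold 1.02 to 1.18). At 20 °C mutants had 433, 405, 404 and 418 CPM, against 395, 411, 405 and 403 CPM in wild type. These groups overlapped, with a log2 difference of 0.06 ± 0.04 (SE, adjusted p = 0.292). The fold at 20 °C lay within a 95% interval of 0.989 to 1.09.

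*cul-4* (WBGene00000839, chromosome II, 7302101 to 7305758, plus strand) encodes the scaffold that, with DDB-1, keeps DNA from being replicated more than once per cell cycle. It had 135, 131, 129 and 131 CPM in mutants at 25 °C, against 123, 127, 118 and 115 CPM in wild type. The groups did not overlap, but the log2 difference of 0.12 ± 0.04 (SE) did not pass (edgeR adjusted p = 0.124). At 20 °C it had 139, 144, 132 and 141 CPM in mutants and 143, 140, 146 and 138 CPM in wild type, with a log2 difference of -0.01 ± 0.04 (SE) and overlapping groups.

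*cul-2*, *cul-3*, *cul-5* and *rbx-2* did not pass between strains at either temperature. *cul-2* (WBGene00000837, chromosome III, 13687269 to 13692683, plus strand) serves meiotic progression and the polarity of the early embryo, and its span overlaps *cyn-2* on the same strand, so the division of reads between them is uncertain. It ranged from 346 to 365 CPM in mutants and from 349 to 359 CPM in wild type at 25 °C, and from 359 to 384 CPM in mutants and from 350 to 390 CPM in wild type at 20 °C. The 95% intervals of its fold were 0.953 to 1.07 at 25 °C and 0.950 to 1.06 at 20 °C. *cul-3* (WBGene00000838, chromosome V, 177417 to 185172, plus strand), which with MEL-26 removes the meiotic katanin MEI-1, ranged from 266 to 272 CPM in mutants and from 218 to 274 CPM in wild type at 25 °C. Wild type at 25 °C was its most spread group, with a coefficient of variation of 9.66% against 0.954% in mutants. At 20 °C *cul-3* ranged from 261 to 276 CPM in mutants and from 260 to 282 CPM in wild type.

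*cul-5* (WBGene00000840, chromosome V, 10179535 to 10183154, plus strand) and *rbx-2* (WBGene00019993, chromosome I, 6420660 to 6421889, minus strand) encode a scaffold and a RING protein that work together. *cul-5* had 136, 131, 132 and 134 CPM in mutants at 25 °C, against 128, 137, 137 and 137 CPM in wild type. At 20 °C it had 159, 150, 146 and 139 CPM in mutants and 148, 143, 151 and 141 CPM in wild type. The groups overlapped at both temperatures, and the 95% intervals of the fold were 0.929 to 1.05 at 25 °C and 0.974 to 1.09 at 20 °C. *rbx-2* was the least abundant of the 7 well expressed genes, with 301 to 358 counts in mutants and 307 to 360 counts in wild type at 25 °C. In CPM it ranged from 21.7 to 22.5 in mutants and from 20.7 to 21.8 in wild type at 25 °C, and from 22.5 to 26.5 in mutants and from 20.9 to 23.6 in wild type at 20 °C. Its fold had 95% intervals of 0.956 to 1.15 at 25 °C and 0.972 to 1.20 at 20 °C.

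*cul-6* (WBGene00000841, chromosome IV, 12586485 to 12590451, minus strand) is a close relative of *cul-1* that forms its own SCF ligase in the intracellular pathogen response, a programme which worms switch on against microsporidia and viruses and which also improves survival of heat. It lies on the same chromosome as *fbxa-215* (13665364 to 13666909), 1074913 bases away. At 25 °C it had 14, 15, 10 and 11 counts in mutants, against 4, 7, 4 and 3 counts in wild type. Every mutant library lay above every wild-type library. In CPM this was 0.829 ± 0.116 in mutants and 0.290 ± 0.104 in wild type (SD, n = 4). The edgeR log2 difference was 1.49 ± 0.34 (SE), a fold of 2.80 (95% interval 1.70 to 4.61), with an adjusted p of 0.0242. *cul-6* was admitted to this test by the mutant libraries alone: the filter asked for 0.665 CPM in 4 libraries, which all 4 mutant and none of the wild-type libraries reached. Its place among the genes that passed is therefore not independent of its difference.

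The *cul-6* call rested on few reads. It was lost without wild-type replicate 1 (edgeR adjusted p = 0.0791), mutant replicate 1 (0.0896) or mutant replicate 4 (0.0645), and DESeq2 gave no adjusted p for so low a count (log2 difference 1.51 ± 0.51, SE, unadjusted p = 0.00276). The floor of 3 counts corresponded to between 0.179 and 0.300 CPM on the unscaled library totals. Wild type at 25 °C reached 3 counts in replicate 4 and no more than 7 counts in any library.

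At 20 °C *cul-6* had 6, 12, 10 and 4 counts in mutants, against 7, 10, 11 and 12 counts in wild type. These groups overlapped, and the mean was 0.533 ± 0.208 CPM in mutants and 0.840 ± 0.294 CPM in wild type (SD, n = 4). The gene failed the filter at 20 °C. With no filter the edgeR log2 difference was -0.56 ± 0.41 (SE, adjusted p = 0.476). The difference between the 2 strain effects, the genotype by temperature interaction, was 2.02 ± 0.51 on the log2 scale (SE, 95% interval 0.96 to 3.08) and did not pass (edgeR adjusted p = 0.0524, from 0.0378 to 0.0998 over 21 alternatives, of which 4 passed).

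As a share of the counts of the 2 SCF scaffolds *cul-1* and *cul-6* in sum, *cul-6* held 0.239% in mutants at 25 °C (95% Clopper-Pearson interval 0.177% to 0.315%, libraries pooled) and 0.0918% in wild type at 25 °C (0.0544% to 0.145%). At 20 °C it held 0.131% in mutants (0.0898% to 0.185%) and 0.200% in wild type (0.143% to 0.273%). The intervals describe counting error alone and leave out the spread between libraries. Because PCR copies are not separate molecules, they may be too narrow even for counting error. In single libraries the share ran from 0.198% to 0.287% in mutants and from 0.0651% to 0.135% in wild type at 25 °C, and from 0.0765% to 0.183% in mutants and from 0.131% to 0.304% in wild type at 20 °C. All counts of *cul-6* were whole numbers to within 0.01, whereas at most 2 of the 16 counts of each other cullin and of *rbx-1* were whole.

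No gene of the 8 passed the interaction, where 1.16% of 12117 genes tested did. Only *cul-6* had an unadjusted p under 0.05, and limma-voom called none of the 8. DESeq2 called none of the other 7 and gave *cul-6* no adjusted p (log2 interaction 2.10 ± 0.64, SE, unadjusted p = 0.00105), so it made no decision on that gene. For *rbx-1* the interaction was -0.02 ± 0.06 (SE, log2) with a 95% interval of -0.15 to 0.10. For *cul-4* it was 0.10 ± 0.06 (SE), with a 95% interval of -0.01 to 0.22, and for *cul-1* it was 0.04 ± 0.06.

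**Figure D3:**
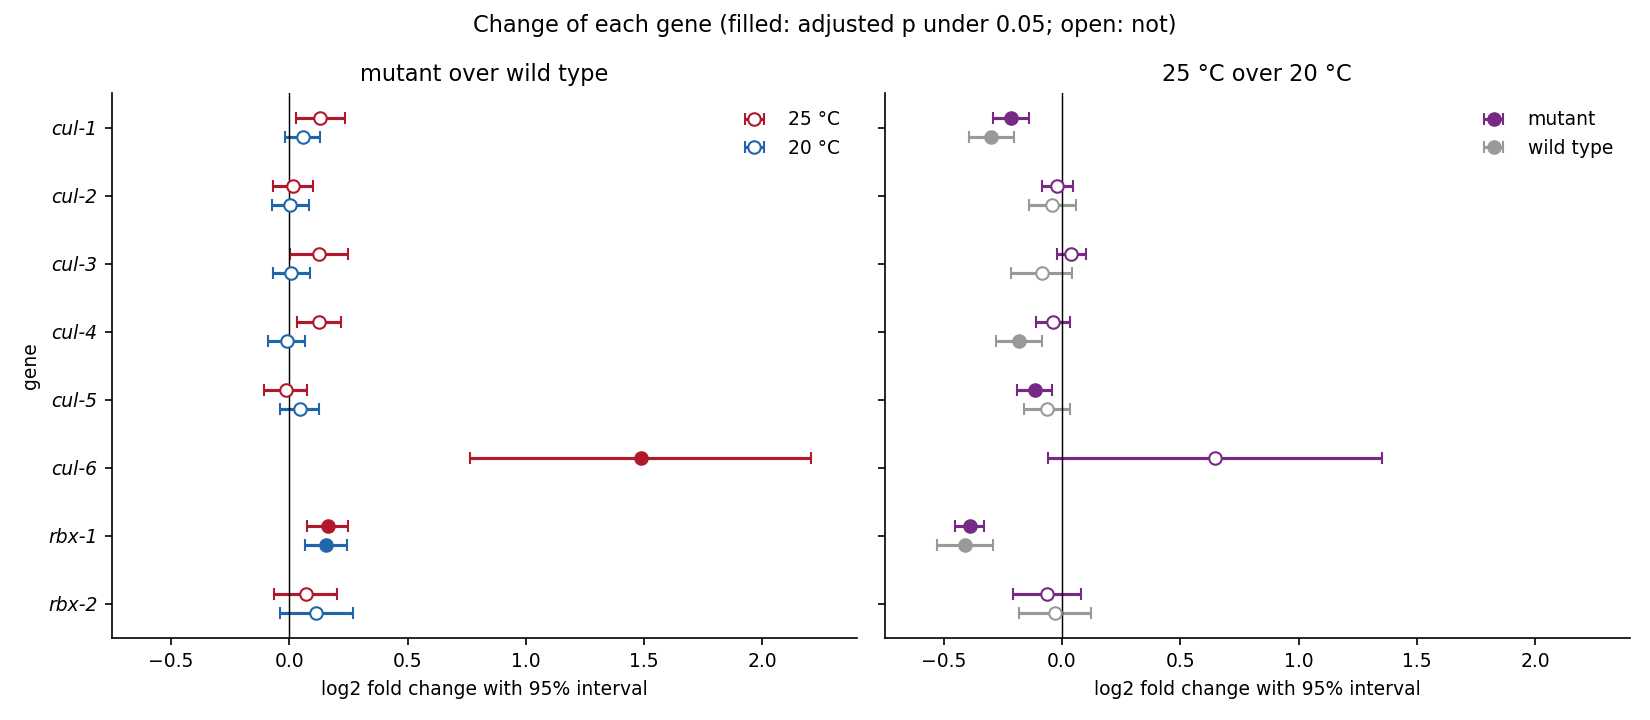
Log2 fold change of each gene with its 95% interval, for mutant over wild type (left) and 25 °C over 20 °C (right), with filled points at an edgeR adjusted p under 0.05. *rbx-1* is higher in mutants by 0.16 at 25 °C and 0.15 at 20 °C and lower at 25 °C than at 20 °C by more than any other gene shown, and *cul-6* is drawn only where it passed the filter on low counts.

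For *rbx-1* and *cul-1*, growth at 25 °C, with its earlier bleaching, went with larger differences than genotype did. In mutants *rbx-1* was at 227 ± 2.52 CPM at 25 °C and 306 ± 5.19 CPM at 20 °C (SD, n = 4), a log2 difference of -0.39 ± 0.03 (SE) and an edgeR adjusted p of 1.35e-11. In wild type it was at 202 ± 6.27 CPM at 25 °C and 278 ± 18.8 CPM at 20 °C, a log2 difference of -0.41 ± 0.06 (SE) and an adjusted p of 8.64e-06. In both strains the groups did not overlap, and *rbx-1* kept its call in all 16 alternatives. *cul-1* fell as well, to 347 ± 21.2 CPM at 25 °C against 415 ± 13.6 CPM at 20 °C in mutants, and to 317 ± 6.16 CPM against 404 ± 6.71 CPM in wild type (SD, n = 4). Its log2 differences were -0.22 ± 0.04 and -0.30 ± 0.04 (SE), with edgeR adjusted p of 1.79e-05 in mutants and 2.40e-05 in wild type. These calls too were kept in all 16 alternatives.

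*cul-4* and *cul-5* passed between temperatures in one strain only, which does not show that the strains differ, since no interaction passed. *cul-5* passed in mutants, with a log2 difference of -0.12 ± 0.04 (SE, edgeR adjusted p = 0.00616), a call lost with upper-quartile scaling (0.0548) and with a minimum of 10 counts in every library (0.0541). In wild type its difference was -0.06 ± 0.05 (adjusted p = 0.224). *cul-4* passed in wild type, with a log2 difference of -0.18 ± 0.05 (SE, adjusted p = 0.00279, kept in all 16 alternatives), while in mutants its difference was -0.04 ± 0.03 (adjusted p = 0.352). *cul-2* and *rbx-2* did not pass in either strain. The 95% intervals of their folds were 0.942 to 1.03 in mutants and 0.908 to 1.04 in wild type for *cul-2*, and 0.866 to 1.06 and 0.882 to 1.09 for *rbx-2*. *cul-3* had a log2 difference of 0.04 ± 0.03 in mutants and -0.09 ± 0.06 in wild type. In mutants its rise passed with upper-quartile scaling (0.08, adjusted p = 0.0276) and with a minimum of 10 counts in every library (0.08, 0.0221).

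*cul-6* had 14, 15, 10 and 11 counts at 25 °C in mutants, against 6, 12, 10 and 4 counts at 20 °C, and these groups overlapped (log2 difference 0.65 ± 0.34, SE, edgeR adjusted p = 0.0967). In wild type it had 4, 7, 4 and 3 counts at 25 °C, against 7, 10, 11 and 12 counts at 20 °C. The CPM of the wild-type groups did not overlap. The gene failed the filter in wild type, and with no filter its log2 difference was -1.43 ± 0.46 (SE, edgeR adjusted p = 0.00857).

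Most genes of the embryo differed between temperatures, and the counts of members are given beside the shares of all genes. In mutants 3 of 8 genes passed, all 3 lower at 25 °C, where 69.3% of 11558 genes passed and 33% passed as lower. In wild type 3 of 7 passed, all 3 lower, where 66.1% of 11579 genes passed and 31.3% passed as lower. Groups did not overlap for 4 of 8 genes in mutants, against 65.2% of all genes tested. In wild type they did not overlap for 5 of 8, against 62.9% of all genes tested. These 5 include *cul-6*, which failed the filter in wild type. Stage markers moved with these differences. Of the 20 late differentiation markers tested in wild type 19 were higher at 25 °C, 17 of them by more than a fold of 2, and of the 19 maternal markers tested 13 were lower and 1 was higher. Only 14 of the 22 late markers passed the filter on low counts among the 20 °C libraries. Some late markers therefore entered the temperature tests through their 25 °C libraries, and their calls are not independent of their difference. In mutants 17 of 19 late markers were higher, and of 19 maternal markers 13 were lower and 1 was higher. Early zygotic markers were lower at 25 °C for 14 of 16 in wild type and 13 of 16 in mutants, with 1 higher in each strain. Between strains, late markers were lower in mutants for 3 of 20 at 25 °C and for 8 of 14 at 20 °C, with 1 of 14 higher at 20 °C, while 5 of 19 maternal markers were higher in mutants at 25 °C and none was lower, and 2 were higher and 2 lower at 20 °C. Of 16 early zygotic markers 1 was higher in mutants at 25 °C and 2 at 20 °C, and none was lower. Among all genes tested between strains, 4.14% passed at 25 °C and 2.09% passed as higher. At 20 °C these shares were 17.3% and 7.65%. The part of these stage differences in the results for *rbx-1*, *cul-1* and the other members was not tested.

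Over the 16 libraries, *cul-1* and *rbx-1* varied most alike of the members (Pearson's r of log2 CPM, 0.93), and *cul-2* and *rbx-2* least (0.26). Outside the 8 genes, the best matches among 10771 genes with a mean of at least 1 CPM were *let-355* and B0464.6 for *cul-1* (both 0.98), and *snr-4* and *rnp-4* for *rbx-1* (0.99 and 0.98). For *cul-2* they were C01B10.9 (0.89) and *nath-10* (0.87), for *cul-3* *larp-1* and *cbp-1* (both 0.95), and for *cul-4* *thoc-2* and *kin-18* (both 0.94). *cul-5* was most like *nefr-1* and *sir-2.1* (both 0.92), and *rbx-2* was most like *hpo-9* (0.82) and WBGene00018577 (0.81). The points of these correlations share the 2 collection batches and their depths, and *cul-6* was left out for its low counts.

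Genes that switch cullins on and off passed more often between temperatures than between strains, as genes did in general (69.3% and 66.1% of all genes tested between temperatures, against 4.14% and 17.3% between strains). Of 16 genes for neddylation, its removal and related steps, 15 were matched and tested. *ari-1.1*, whose human relative is a ubiquitin ligase that works with neddylated cullins, was higher in mutants at 25 °C (log2 difference 0.22 ± 0.05, SE, edgeR adjusted p = 0.0194) and at 20 °C (0.19 ± 0.06, adjusted p = 0.0182). *csn-2*, a subunit of the COP9 signalosome that removes NED-8, was higher at 20 °C (0.13 ± 0.03, adjusted p = 0.0117). At 25 °C its difference was 0.17 ± 0.05 (edgeR adjusted p = 0.0620), which DESeq2 called and limma-voom did not. None of the 15 passed as lower in mutants. The list median was 0.08 at 25 °C and 0.04 at 20 °C, beside -0.00 and 0.00 for all genes tested.

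The single genes of this cycle set out for description did not pass between strains. *ned-8* had 138 ± 3.22 CPM in mutants and 151 ± 15 CPM in wild type at 25 °C, and 198 ± 5.16 CPM in mutants and 207 ± 13.7 CPM in wild type at 20 °C (SD, n = 4). *rfl-1*, part of the enzyme that activates NED-8, had log2 differences between strains of 0.05 ± 0.06 (SE) at 25 °C and 0.11 ± 0.05 at 20 °C. For *cand-1*, which exchanges substrate receptors on cullins, they were 0.09 ± 0.06 and -0.05 ± 0.04, and for *csn-5*, the catalytic subunit of the signalosome, 0.08 ± 0.04 and 0.09 ± 0.05. Between temperatures 13 of the 15 genes passed as lower at 25 °C in each strain. Of all genes tested, 33% in mutants and 31.3% in wild type did so. The count for the list became 9 in mutants and 8 in wild type with upper-quartile scaling, and 9 and 7 with a minimum of 10 counts in every library. *ned-8* fell by 0.48 ± 0.03 in mutants and by 0.40 ± 0.07 in wild type on the log2 scale (SE), close to *rbx-1*. The median of the 15 was -0.18 in mutants and -0.20 in wild type, beside 0.00 for all genes tested in each.

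**Figure D4:**
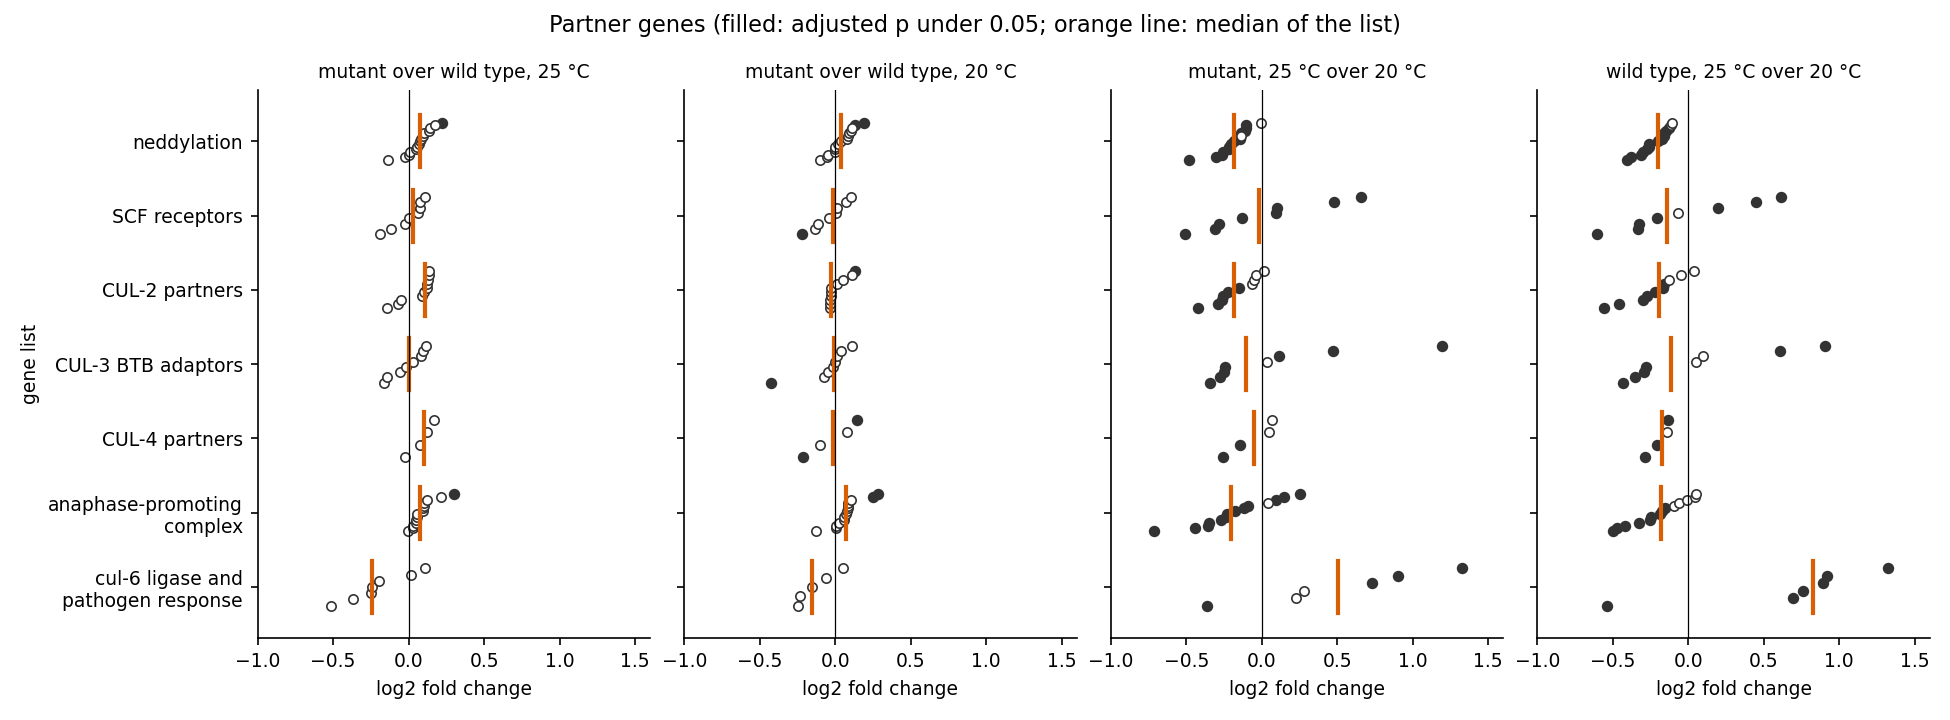
Log2 fold change of every tested gene in 7 lists of partners of the cullins, with filled points at an edgeR adjusted p under 0.05 and the list median as an orange line. Between strains (2 left panels) few points are filled. Between temperatures (2 right panels) 13 of 15 neddylation genes passed as lower at 25 °C in each strain, as did 33% of all genes in mutants and 31.3% in wild type.

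Substrate receptors and adaptors were examined by scaffold. By adjusted p, 4.14% of all genes tested passed between strains at 25 °C and 17.3% at 20 °C. The share of all genes under an unadjusted p of 0.05 was not counted. The unadjusted counts for these and the later lists therefore cannot be read against all genes. Of 8 F-box genes of the CUL-1 ligases outside the large *fbxa*, *fbxb* and *fbxc* families, none passed at 25 °C by edgeR or limma-voom, with 1 under an unadjusted p of 0.05 by edgeR. DESeq2 called that gene at 25 °C as lower in mutants, *dre-1*, which times development in the larva (edgeR log2 difference -0.19 ± 0.05, SE, adjusted p = 0.0637). *dre-1* was also lower in mutants at 20 °C (-0.22 ± 0.04, edgeR adjusted p = 0.000288). Of 10 partners of CUL-2, none passed at 25 °C by edgeR, DESeq2 or limma-voom, with 5 under an unadjusted p of 0.05 by edgeR. *elb-1*, the elongin B of this ligase, was higher in mutants at 20 °C (0.13 ± 0.04, adjusted p = 0.0440), a call that upper-quartile scaling and DESeq2 did not make. Of 11 BTB adaptors of CUL-3, 9 were matched and 8 tested. None passed at 25 °C by the same 3 tools, with 1 under an unadjusted p of 0.05 by edgeR, and *kel-1* was lower in mutants at 20 °C (-0.43 ± 0.12, adjusted p = 0.0134). *dre-1* and *kel-1* were also higher at 25 °C than at 20 °C, by 0.66 and 1.19 on the log2 scale in mutants and by 0.61 and 0.90 in wild type. Of the 10 CUL-2 partners 6 passed as lower at 25 °C than at 20 °C in mutants and 7 in wild type, and none passed as higher. Of all genes tested, 33% in mutants and 31.3% in wild type passed as lower. With upper-quartile scaling the count of CUL-2 partners lower in wild type became 4.

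Among 6 partners of CUL-4, 4 were matched and tested, and none passed at 25 °C by edgeR, DESeq2 or limma-voom, with 2 under an unadjusted p of 0.05 by edgeR. At 20 °C *ddb-1*, the adaptor of this scaffold, was lower in mutants (log2 difference -0.21 ± 0.04, SE, edgeR adjusted p = 0.00119), and *cdt-2*, a receptor that directs the destruction of the replication factor CDT-1, was higher (0.14 ± 0.04, adjusted p = 0.0241). Among all genes tested at 20 °C, 17.3% passed and 7.65% passed as higher. At 25 °C *ddb-1* had a difference of -0.02 ± 0.04 and *cdt-2* of 0.17 ± 0.06 (adjusted p = 0.115). The interaction for *ddb-1* did not pass (0.16 ± 0.06, adjusted p = 0.197).

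The anaphase-promoting complex, a ligase that has a cullin-like and a RING subunit of its own, was set beside the 8 genes. Its RING subunit *apc-11* was higher in mutants at both temperatures. It had 64.8 ± 2.33 CPM in mutants and 52.4 ± 2.78 CPM in wild type at 25 °C, and 85.5 ± 2.69 CPM in mutants and 72.6 ± 3.59 CPM in wild type at 20 °C (SD, n = 4). The log2 differences were 0.30 ± 0.05 (SE, edgeR adjusted p = 0.00712) at 25 °C and 0.25 ± 0.05 (adjusted p = 0.000653) at 20 °C. The cullin-like subunit *apc-2* did not pass (-0.00 ± 0.05 at 25 °C and 0.07 ± 0.05 at 20 °C). Of the 14 genes matched and tested, 1 passed as higher at 25 °C and 2 at 20 °C, the other being *emb-1* (0.28 ± 0.09, adjusted p = 0.0418). None passed as lower. Of all genes tested, 2.09% at 25 °C and 7.65% at 20 °C passed as higher. Between temperatures *apc-11* fell by 0.36 ± 0.04 in mutants and by 0.42 ± 0.06 in wild type on the log2 scale (SE). Of the 14 genes, 10 passed as lower and 3 as higher at 25 °C in mutants, where 69.3% of all genes passed and 33% passed as lower. In wild type 9 passed as lower and none as higher, where 66.1% of all genes passed and 31.3% passed as lower. A minimum of 10 counts in every library gave 6 lower and 1 higher in wild type.

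Among partners of CUL-6 and genes of the intracellular pathogen response, no gene with enough counts to test passed between strains. Genes with too few counts were not tested and went both ways. At 25 °C *rcs-1* was at 0.578 CPM in mutants and 0.312 CPM in wild type, and *pals-14* at 0.0695 and 0.263 CPM. At 20 °C *rcs-1* was at 0.165 CPM in mutants and 0.303 CPM in wild type. Of 15 genes, 7 had enough counts at 25 °C and 5 at 20 °C, and none passed at either temperature by edgeR, DESeq2 or limma-voom, with 2 under an unadjusted p of 0.05 at 25 °C, *skr-3* and *pals-22*, and none at 20 °C. *skr-3*, a Skp1-like adaptor known to work with CUL-6, had a log2 difference between strains of -0.37 ± 0.14 (SE, adjusted p = 0.155) at 25 °C and 0.05 ± 0.19 at 20 °C. *pals-22*, which holds the response off, and *pals-25*, which turns it on, had differences of -0.25 ± 0.10 and -0.19 ± 0.10 at 25 °C. The list median was -0.24 at 25 °C and -0.15 at 20 °C. In wild type, *skr-3*, *pals-22*, *pals-25*, *pals-26* and *zip-1*, 5 of 6 genes tested, passed as higher at 25 °C than at 20 °C. They were higher by 0.70 to 1.33 on the log2 scale, and *drh-1* passed as lower. *pals-26* had 0.304 to 0.665 CPM in wild type at 20 °C and 0.848 to 1.29 CPM at 25 °C. The filter asked for 0.714 CPM in 4 libraries, so *pals-26* entered this test through its 25 °C libraries alone. Its call is therefore not independent of its difference. With a minimum of 10 counts in every library, 4 of 5 genes tested in wild type passed as higher and 1 as lower. Of all genes tested in wild type, 66.1% passed, with 31.3% as lower. The *cul-6* counts in wild type were lower at 25 °C. In mutants 3 of 6 passed as higher (*pals-22*, *pals-25* and *zip-1*) and *drh-1* as lower, where 69.3% of all genes passed and 33% passed as lower. The genes of this paragraph other than *cul-6* were named after their values were seen.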

How the data were processed

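Libraries were non-directional, poly-A enriched and read as pairs. Per the submitters' notes and methods, the authors trimmed reads with Trimmomatic v0.39 and quantified genes with salmon v1.5.1 with sequence and GC bias correction; they deposited estimated counts per gene, 1 table per temperature, which were rounded here (27.42% of values were not whole to within 0.01). The build was WBcel235. The authors also deposited DESeq2 tables with log2 fold changes and adjusted p-values, which were not used, and log2 values per library, which served only to check columns: all 16 count columns correlated best with their own library (r of at least 0.988). Exonic length and positions came from the Ensembl release 115 annotation.

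Fits were run in R (v4.3.3) with edgeR (v4.0.16; quasi-likelihood test, filterByExpr, TMM factors, Benjamini-Hochberg adjustment over all genes tested), on the 8 libraries of a comparison or all 16 for the interaction; a gene passed at an adjusted p under 0.05. SE were derived from the F statistic, and folds carry 95% intervals. CPM used TMM factors over 16 libraries, and correlations used log2 CPM with a prior count of 2. Alternatives were limma-voom (v3.58.1 of limma), DESeq2 (v1.42.0), other scalings and filters, a replicate block and leaving out each library. Scripts were tested on simulated data. A count of 0 was taken to allow 3 counts. The rule for names took the 8 members, *fbxa-215*, 6 set genes, and from each list the genes passing between strains. The members and lists were chosen with earlier results of these data known. List names that matched no gene in the tables were *apc-1*, *apc-16*, *btb-21*, *crbn-1*, *csn-7*, *dcaf-13* and *gan-1*.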

Additional observations from a re-analysis of the deposited data

Results flagged for a closer look

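One result of 32 groups of 4 libraries examined (8 genes in 4 groups) had a library far from the others. *cul-5* in wild type at 25 °C had 128 CPM in replicate 1, against 137, 137 and 137 CPM in the other replicates, and the gap took up 0.933 of the range of the group, above Dixon's critical value for 4 libraries. Chance alone gives a gap above that critical value, 0.829, in about 1 of 20 groups, and 32 groups were examined. Without this library the *cul-5* difference between strains at 25 °C still did not pass.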

How the results depend on the processing

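None of the 9 differences that passed changed direction in any of their 142 alternatives, and over all 659 alternative values 34 changed sign, the largest of them at 0.036 on the log2 scale. The number of the 8 genes that passed fell when a fold above 2 was also asked for, to 0 between strains at 20 °C, 1 at 25 °C, and 0 between temperatures in each strain. At 25 °C 1 passed in place of 2 with DESeq2, upper-quartile scaling, a minimum of 10 counts in every library, a replicate block or all 16 libraries in 1 fit; DESeq2 gave *cul-6* no adjusted p there, and the minimum of 10 counts left it out. Leaving out 1 library gave 0 to 1 at 20 °C, 0 to 2 at 25 °C and 0 to 1 for the interaction, where RLE factors or no filter gave 1, *cul-6*, in place of 0 (edgeR adjusted p = 0.0483 and 0.0378).

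Signs changed only near 0. With upper-quartile scaling the *cul-2* log2 difference was -0.0039 at 20 °C, -0.011 at 25 °C, 0.016 between temperatures in mutants and 0.022 in wild type, that of *cul-4* in mutants was 0.00010, and that of *rbx-2* in wild type was 0.034. With a minimum of 10 counts they were -0.0012 (*cul-2*, 20 °C), 0.019 and 0.0025 (*cul-2* and *cul-4* in mutants), and 0.023 and 0.036 (*cul-2* and *rbx-2* in wild type). With all 16 libraries in 1 fit *cul-2* was at -0.0095 at 25 °C and *cul-3* at -0.0099 between temperatures in mutants. Interactions of *cul-2* and *rbx-1* were 0.015 and 0.012 with DESeq2, 0.014 and 0.013 with RLE factors, and 0.028 and 0.026 with no filter. Leaving out 1 library gave ranges at 20 °C of -0.026 to 0.021 (*cul-2*), -0.011 to 0.027 (*cul-3*) and -0.030 to 0.013 (*cul-4*), and interactions of -0.032 to 0.025 (*cul-2*) and -0.062 to 0.033 (*rbx-1*). The cause was not tested.

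Deviations of libraries with the same replicate number correlated weakly at most, from -0.0430 to 0.103 over the comparisons, and the numbers were not taken as pairs. At 20 °C all 4 mutant libraries correlated best with their own number, a hint from the data only. There the correlations were 0.0214 to 0.103 for the same number and -0.0995 to 0.0416 for other numbers. With the replicate block, *rbx-1* at 25 °C had an adjusted p of 0.0700 (edgeR), and the counts that passed were otherwise 1 at 20 °C, 3 in each strain between temperatures and 0 for the interaction. Over all genes, the interaction called 57 as higher and 84 as lower, against 87 and 58 with RLE factors, 74 and 59 with upper-quartile scaling and 37 and 87 with the minimum of 10 counts. Depth limits only *cul-6*, with 3 to 15 counts per library.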

Other observations

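Ratios between members within a library do not depend on library scaling, and several separated groups. The level per length of *cul-2* relative to *cul-1* was 0.813 to 0.888 in mutants and 0.885 to 0.940 in wild type at 25 °C, and 0.703 to 0.760 in mutants and 0.714 to 0.793 in wild type at 20 °C. The 25 °C libraries lay above the 20 °C libraries in each strain, and the strains overlapped at both temperatures. The share of *cul-2* in the cullin sum was 26.04% to 26.51% in mutants and 26.7% to 28.02% in wild type at 25 °C, which did not overlap. The ratio of *rbx-1* to *rbx-2* was 9.49 to 9.96 in mutants and 8.78 to 9.18 in wild type at 25 °C, which did not overlap, and 10.8 to 12.9 in mutants and 11.1 to 12.2 in wild type at 20 °C, which did. These ratios were chosen after the levels were seen and were not tested.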
